A study of Mus musculus with 12 samples.

Results

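Transcripts of 9 chemokines (Cxcl1, Cxcl2, Cxcl5, Cxcl10, Cxcl12, Cxcl16, Cx3cl1, Ccl2 and Ccl20) were followed through the conversion of hepatocytes toward bile duct cells in mouse liver. They were selected by gene symbol from a table of 53599 genes, and all 9 were present and passed the filter on low counts. The data are bulk RNA-seq of sorted liver cells, with 12 libraries in 4 groups of 3 replicates. All mice were labelled as wild type, carried AAV8-TBG-Cre, in which a hepatocyte promoter drives Cre recombinase, and were challenged from 1 week later with a diet of 0.1% DDC for 8 weeks. DDC is a porphyrinogenic compound that injures the bile ducts and provokes a ductular reaction. Every group therefore carried the virus and the injury, and no uninjured group was analysed here. The early group consisted of EGFP+ Cd24- Epcam- cells, the intermediate group of EGFP+ Cd24+ Epcam- cells and the full group of EGFP+ Cd24+ Epcam+ cells. EGFP marks descendants of hepatocytes, and Cd24 and Epcam are surface proteins of biliary cells. The fourth group, called BEC in the labels, held EGFP- Epcam+ cells, biliary cells without the hepatocyte mark. A hepatocyte that escaped Cre would also lack EGFP. Age, sex, the reporter allele and whether replicates came from separate mice were not stated, so p-values measure the spread between these libraries only.

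Chemokines are small secreted proteins that direct the movement of leukocytes through G-protein-coupled receptors. Cxcl1, Cxcl2 and Cxcl5 belong to the branch with a Glu-Leu-Arg motif, which acts on Cxcr2 of neutrophils. Ccl2 attracts monocytes through Ccr2, and Ccl20 attracts Ccr6-bearing lymphocytes and dendritic cells. Cxcl16 and Cx3cl1 are made as transmembrane proteins on a mucin-like stalk and act on Cxcr6 and Cx3cr1. Cxcl10 is induced by interferon and acts on Cxcr3, while Cxcl12 is a largely constitutive ligand of Cxcr4. In injured liver, the cells of the ductular reaction are known as a source of several of these ligands, with inflammatory cells gathering around the ducts.

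Libraries held 15112893 to 19731887 counts. The sum of 12 hepatocyte markers was between 110446 and 117312 CPM (read counts relative to the TMM-scaled library size) in early libraries and between 2477 and 3202 in BEC. The sum of 14 biliary markers was between 1027 and 1997 CPM in early and between 15253 and 18437 in BEC. Neutrophil, T and NK cell, and B cell marker sums were at most 1.37 CPM in any library. For 14 macrophage markers the sum was between 26.3 and 30.4 CPM in early and between 134 and 169.6 in BEC. Most of it was Csf1r (127 ± 6.69 CPM in BEC, SD, n = 3), and without this gene, left out after its values were seen, the sum was between 22.2 and 26.5 CPM in early and between 6.45 and 49.99 in BEC. Adgre1, among the lowest of the 14, was at most 0.522 CPM as a group mean. Cd5l, Clec4f and Lyz2 had higher means in BEC than in early and reached 10.1, 7.68 and 7.63 CPM in single BEC libraries. Cd68 went the other way, from a mean of 13.96 CPM in early to 3.46 in BEC. Of the 11 macrophage markers tested, 1 was called higher and 1 lower in BEC than in early. Monocyte markers summed to at most 6.49 CPM. The sum of 6 dendritic cell markers was between 7.09 and 16.8 CPM in early and between 22.4 and 26.3 in BEC, nearly all of it Zbtb46, while Xcr1, Flt3, Clec9a, Itgax and Cd209a had group means of at most 0.697. For 6 mesothelial markers the sum was between 1.82 and 4.61 CPM in early, 2.39 and 3.23 in intermediate, 29.7 and 45.1 in full, and 225 and 249 in BEC, so that from intermediate onward, though not at the first step, it moved with Cxcl5, Cxcl2, Cx3cl1 and Ccl20. In BEC it consisted mostly of Msln (198 ± 13.2 CPM) and Gpm6a (41.5 ± 10.3), and Upk3b, Wt1, Upk1b and Muc16 had means of at most 0.683 there. The part of these cells in the chemokine levels was not tested. In sorted bulk samples, fewer cells of a type and less RNA per cell cannot be told apart. Comparisons with early depend on scaling, since TMM factors were 0.652 to 0.672 there and 1.03 to 1.22 elsewhere. Scaled to total counts alone, the median over all genes of intermediate against early was 0.72 on the log2 scale in place of 0.06.

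Of the 9 chemokines, 8 differed among the 4 groups (quasi-likelihood F test of edgeR, called at an adjusted p under 0.05), where 75.6% of all genes tested did. Cxcl5, Cxcl2, Cx3cl1, Cxcl16 and Ccl20 were lowest in early and highest in BEC. Cxcl12 and Cxcl10 ran the other way. Ccl2 was highest in intermediate and full, and Cxcl1 was not called. At the first step, intermediate against early, 6 of 9 were called, 5 rising and 1 falling, against 54.4% of all genes tested (28.7% rising, 25.7% falling). At the second step, full against intermediate, 6 were called, again 5 rising and 1 falling, against 40.7% (20.8% and 19.8%). Between BEC and full, 4 were higher and 1 was lower in BEC, against 21.3% (10.7% and 10.6%). Full against early gave 6 higher and 2 lower, against 71.2% (39.1% and 32.1%), BEC against early the same counts, against 73.1% (40.0% and 33.0%), and BEC against intermediate 5 higher and 3 lower, against 52.4% (26.3% and 26.2%). The 3 libraries of a group lay wholly above or below those of the neighbouring group for 6, 6 and 5 of the 9 genes at the 3 comparisons of neighbours, and for 58.7%, 55.0% and 39.6% of all genes. The same held for 8 of the 9 genes in full against early, BEC against early and BEC against intermediate, and for 74.4%, 74.7% and 61.0% of all genes. The medians over the 9 genes were 1.26, 0.93 and 0.16 on the log2 scale, beside 0.06, 0.01 and 0.00 over all genes tested.

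**Figure D1:**
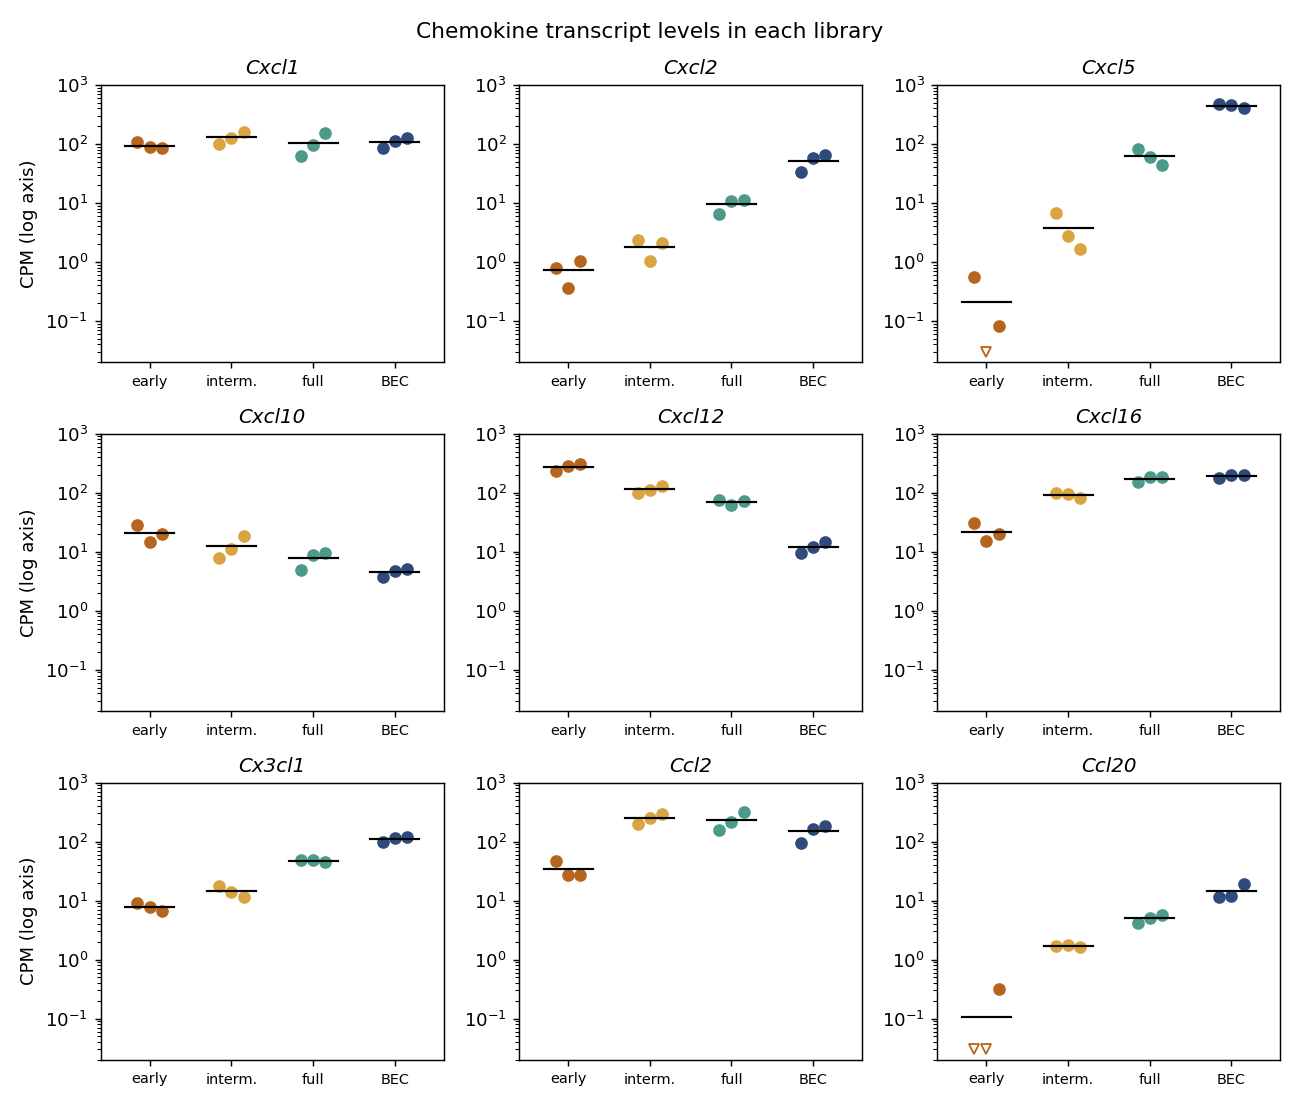
Level of each chemokine in each library, in CPM on a log axis, by group; points are the 3 replicates, bars the group mean, and open triangles libraries with 0 counts. Cxcl5 climbs from at most 0.554 CPM in early to between 399 and 479 in BEC, Cxcl12 falls from at least 236 to at most 14.4, and the groups of Cxcl1 overlap.

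Cxcl5, a neutrophil attractant also known as LIX, showed the widest range. Its 3 early libraries held 0.554, 0 and 0.0809 CPM, which stand for 7, 0 and 1 counts. Intermediate libraries held 6.79, 2.79 and 1.64 CPM, full libraries 83.3, 59.5 and 44.2, and BEC libraries 479, 454 and 399. No group overlapped another, and in intermediate, full and BEC replicate 1 was the highest and replicate 3 the lowest. Cxcl5 rose at the first step (log2 fold change 4.01, SE 0.81, edgeR adjusted p 0.00082), at the second (4.08, SE 0.39, edgeR adjusted p 2.30e-06) and was higher in BEC than in full (2.83, SE 0.33, edgeR adjusted p 3.14e-05). Because early held only 8 counts in all, the ratio of intermediate to early is loosely bounded, at 16.3 with a 95% exact counting interval from 8.12 to 38.4. Without early replicate 1, which held 7 of the 8 counts, the first step came to 6.22 (edgeR adjusted p 0.00121). The interval covers counting error only.

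Cxcl2, known as MIP-2, had 0.791, 0.364 and 1.05 CPM in early and 2.33, 1.04 and 2.09 in intermediate. It reached 6.51, 10.6 and 11.1 CPM in full and 33.2, 56.8 and 64.7 in BEC. Early and intermediate overlapped by 1 library, and the other neighbouring groups did not overlap. The first step was not called (1.26, SE 0.52, edgeR adjusted p 0.053). A block on replicate number made it a call (1.27, edgeR adjusted p 0.0266), as did DESeq2 (1.23, DESeq2 adjusted p 0.0107). It was also called when scaled to total counts (1.92, edgeR adjusted p 0.0045), without a filter on low counts (1.30, edgeR adjusted p 0.00154), and on leaving out intermediate replicate 2, full replicate 1, BEC replicate 1 or BEC replicate 3 (1.27 to 1.55, edgeR adjusted p 0.0236 to 0.0411). Over all omissions of 1 library the first step ran from 0.96 to 1.61 (edgeR adjusted p 0.0236 to 0.180). At the second step Cxcl2 rose by 2.38 (SE 0.34, edgeR adjusted p 9.27e-05), and it was higher in BEC than in full by 2.45 (SE 0.28, edgeR adjusted p 2.94e-05). The changes at the first and second steps were not shown to differ (edgeR adjusted p 0.382 for the difference).

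Cxcl1, known as KC, was already abundant in early cells, with 109, 87.0 and 84.2 CPM. Intermediate libraries had 98.6, 127 and 160.0 CPM, full libraries 62.4, 97.4 and 152, and BEC libraries 86.0, 113 and 126. All 4 groups overlapped. None of the 6 pairs of groups was called with TMM factors, and the changes were 0.46 (SE 0.27) at the first step, -0.31 (SE 0.26) at the second and 0.06 (SE 0.26) for BEC against full (edgeR adjusted p 0.159, 0.382 and 0.919). Other settings gave other calls. The first step was called without a filter on low counts (0.50, edgeR adjusted p 0.00695) and when only the libraries compared were fitted (0.46, edgeR adjusted p 0.0489), and the second without full replicate 3 (-0.69, edgeR adjusted p 0.0363). Other omissions brought them nearer to 0, to 0.28 at the first step without intermediate replicate 3 and -0.05 at the second without full replicate 1 (edgeR adjusted p 0.455 and 0.904). Scaled to total counts, Cxcl1 was above early in intermediate (1.13, edgeR adjusted p 0.00182), full (1.02, edgeR adjusted p 0.00276) and BEC (1.08, edgeR adjusted p 0.00179), beside median shifts of all genes of 0.72, 1.005 and 1.004.

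The upstream sequences of Cxcl1 and Cxcl2 hold a stretch in common. Bases before the annotated start were searched on both strands in RefSeq promoter windows (GRCm38.p6), which were found for 6 of the 9 genes. Cxcl5, Cxcl16 and Ccl2 had no entry. The search covered the kappaB consensus (the binding motif of NF-kB), the single form of it that makes up the first 10 capitals of Cxcl1 below, the interferon response motif (GAAA, any 2 bases, GAAA) and the AP-1 motif TGANTCA. The single form is among the sequences the consensus allows, so these matches overlap. It stood in 2 of the 6 windows, those of Cxcl1 (71 to 62 bases before the start) and Cxcl2 (97 to 88 bases before), and in 0.0852% of all 32851 windows of 250 bases. Because this form is given by the letters of Cxcl1, its match there carries no weight beside that share. The kappaB consensus stood in 4 of the 6 and in 3.90% of all windows. The last 150 bases before the start are shown for the 3 genes with a kappaB match there other than Cxcl10, with matches in capitals (a run of 11 capitals is a match on each strand, shifted by 1 base).
Cxcl1, chr5:90891095-90891244, plus strand: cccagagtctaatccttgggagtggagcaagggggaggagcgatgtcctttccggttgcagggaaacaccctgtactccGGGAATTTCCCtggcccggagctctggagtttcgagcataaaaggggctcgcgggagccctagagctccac
Cxcl2, chr5:90903749-90903898, plus strand: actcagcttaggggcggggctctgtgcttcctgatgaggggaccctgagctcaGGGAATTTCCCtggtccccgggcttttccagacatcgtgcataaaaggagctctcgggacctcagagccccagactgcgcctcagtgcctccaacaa
Ccl20, chr1:83116616-83116765, plus strand: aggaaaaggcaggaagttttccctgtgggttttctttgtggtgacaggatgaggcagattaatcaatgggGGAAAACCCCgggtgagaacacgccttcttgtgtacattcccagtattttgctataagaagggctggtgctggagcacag
A match describes these letters only and is not evidence of binding.

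Cxcl5, Cxcl1 and Cxcl2 are neighbours on chromosome 5, in the order Cxcl5, Ppbp, Pf4, Cxcl3, Cxcl15, Cxcl1 and Cxcl2. Cxcl3, another neutrophil attractant, had 0 counts in all early libraries and 0.251 ± 0.032, 1.13 ± 0.152 and 7.51 ± 1.02 CPM in intermediate, full and BEC (SD, n = 3), which makes BEC at least 29.9-fold higher than early against a floor of 3 counts per library. Pf4, or platelet factor 4, rose from at most 1 count in early to 2.06 ± 0.429 CPM in full and 4.21 ± 0.090 in BEC. Ppbp and Cxcl15 stayed at or under 3 counts in every library. Cxcl1, Cxcl2 and Cxcl3 have similar transcripts, and how reads that match more than 1 gene were counted is not given in the sources used here, so their split is uncertain.

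**Figure D2:**
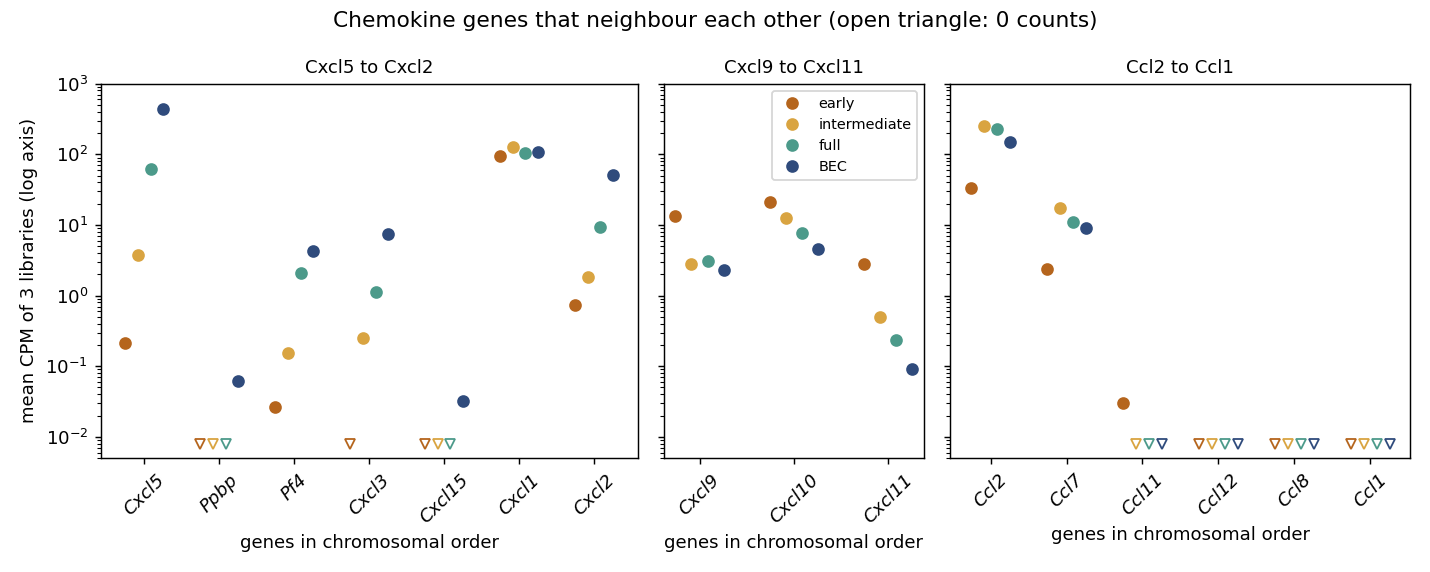
Mean CPM of 3 libraries (log axis) for chemokine genes in chromosomal order, in the neighbourhoods of Cxcl5, Cxcl10 and Ccl2, with groups in colour and open triangles for 0 counts. Cxcl5, Pf4, Cxcl3 and Cxcl2 climb from early to BEC while the 4 means of Cxcl1 lie close together. Cxcl9, Cxcl10 and Cxcl11 are highest in early, and Ccl2 and Ccl7 have their highest mean in intermediate.

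Ccl2, the monocyte attractant MCP-1, rose at the first step and was not called at the second. Early libraries had 47.5, 26.9 and 26.8 CPM and intermediate libraries 196, 250.4 and 298. Full libraries had 159, 215 and 319 CPM, and BEC libraries 96.0, 163 and 187. Early lay below all other libraries, whereas intermediate and full overlapped, as did full and BEC. The first step gave 2.88 (SE 0.32, edgeR adjusted p 4.41e-06), and the second was not called (-0.10, SE 0.29, edgeR adjusted p 0.811). The changes at the 2 steps differed by -2.98 (edgeR adjusted p 0.00106), a test called for 16.4% of all genes. BEC against full was not called either (-0.64, SE 0.29, edgeR adjusted p 0.157), except without a filter on low counts (-0.67, edgeR adjusted p 0.00109). Over all omissions of 1 library that change ran from -0.85 to -0.33 (edgeR adjusted p 0.0736 to 0.551). BEC was below intermediate (-0.74, SE 0.29, edgeR adjusted p 0.048), a call at the edge of the threshold. It was lost when scaling used total counts (-0.53, edgeR adjusted p 0.136) or median-of-ratios factors (-0.69, edgeR adjusted p 0.0638), and with a minimum mean of 50 counts (-0.70, edgeR adjusted p 0.0619). It was also lost without early replicate 2, intermediate replicate 2 or 3, full replicate 2, or BEC replicate 1 or 2 (-0.51 to -0.81, edgeR adjusted p 0.0534 to 0.179). Ccl7, the neighbouring gene and another monocyte attractant, had 2.37 ± 0.132 CPM in early (SD, n = 3). Its level was 17.3 ± 8.46 CPM in intermediate, 11.1 ± 6.49 in full and 8.95 ± 2.74 in BEC. It rose at the first step (2.88, SE 0.48, edgeR adjusted p 0.000174) and was not called at the second (-0.64, edgeR adjusted p 0.221). The other 4 genes of that neighbourhood, Ccl11, Ccl12, Ccl8 and Ccl1, had at most 1 count in any library.

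Both transmembrane chemokines rose at the first and second steps. Cxcl16 had 30.4, 15.2 and 19.8 CPM in early, 97.9, 93.6 and 81.0 in intermediate, 149.8, 182 and 188 in full, and 181, 199 and 203 in BEC. Full and BEC overlapped and the other neighbouring groups did not. It rose by 2.05 (SE 0.19, edgeR adjusted p 9.09e-07) and then by 0.93 (SE 0.18, edgeR adjusted p 0.000894), and was not called between BEC and full (0.16, SE 0.18, edgeR adjusted p 0.604). The second change was smaller than the first by 1.12 on the log2 scale (edgeR adjusted p 0.024). That difference was not called without early replicate 3, intermediate replicate 1, intermediate replicate 2 or full replicate 1, where its size was -1.06, -1.02, -1.08 and -1.03 (edgeR adjusted p up to 0.0924).

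Cx3cl1, or fractalkine, had 9.18, 7.91 and 6.56 CPM in early and 18.0, 14.1 and 11.5 in intermediate. It reached 48.0, 48.2 and 45.9 CPM in full and 99.4, 113 and 121 in BEC. No group overlapped another. Its changes were 0.88 (SE 0.17, edgeR adjusted p 0.00050), 1.71 (SE 0.15, edgeR adjusted p 1.18e-06) and 1.23 for BEC against full (SE 0.14, edgeR adjusted p 2.63e-05). The second change exceeded the first by 0.83 without being called (edgeR adjusted p 0.0536). This difference was called with a block on replicate number (0.84, edgeR adjusted p 0.038), and with DESeq2 (0.92, DESeq2 adjusted p 0.0127). It was also called with median-of-ratios factors (0.92, edgeR adjusted p 0.0343), without a filter on low counts (0.80, edgeR adjusted p 0.0273), with a minimum mean of 50 counts (0.87, edgeR adjusted p 0.0408), and without early replicate 3 (0.94) or intermediate replicate 1 (1.18). Over all omissions of 1 library the difference ran from 0.54 to 1.18 (edgeR adjusted p 0.0115 to 0.242). Of 5 genes that release such chemokines from the membrane or regulate the release, 4 rose and none fell at the first step, 2 rose and none fell at the second, and 1 was higher in BEC than in full. Among all genes, 28.7%, 20.8% and 10.7% were called higher at these comparisons. The list medians were 0.78, 0.18 and 0.24. Adam10, a sheddase of Cxcl16 and Cx3cl1, had 76.9 CPM in early and rose to 144 (0.90, SE 0.11, edgeR adjusted p 1.01e-05). Timp3, an inhibitor of Adam17, had 7.46 CPM in early and rose to 31.8 (2.10, SE 0.31, edgeR adjusted p 6.98e-05). Adam17 itself had 40.2 CPM in early and 38.0 in intermediate, and rose at the second step to 51.0 (0.42, SE 0.10, edgeR adjusted p 0.00293).

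Ccl20, the ligand of Ccr6, was close to absent from early libraries, with 0, 0 and 0.324 CPM (4 counts in all). It had 1.70, 1.75 and 1.64 CPM in intermediate, 4.21, 5.13 and 5.64 in full, and 11.7, 12.2 and 19.4 in BEC. The 4 groups did not overlap. Ccl20 rose by 3.86 (SE 0.64, edgeR adjusted p 0.000163) and by 1.55 (SE 0.33, edgeR adjusted p 0.00196), and was higher in BEC than in full by 1.53 (SE 0.29, edgeR adjusted p 0.0017). The ratio of intermediate to early summed counts was 15.3, with a 95% exact counting interval from 5.76 to 57.3. Early replicate 3 held all 4 counts, and without it the fitted first step was 8.01, a value that the 0 counts left in early do not bound.

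**Figure D3:**
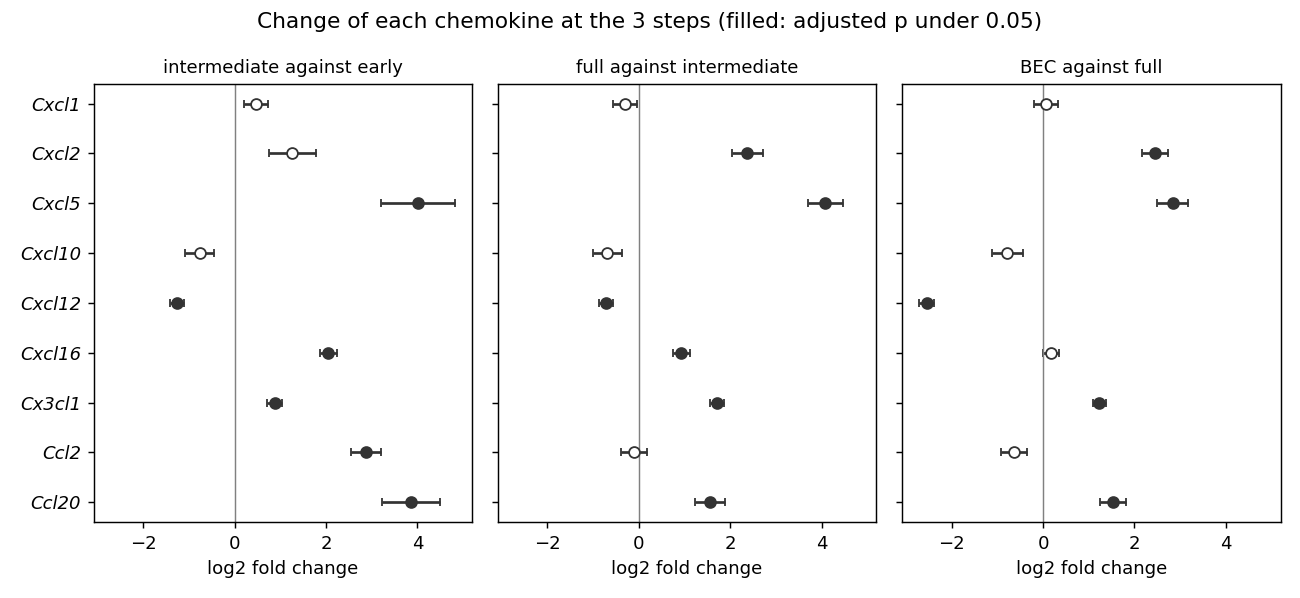
Log2 fold change of each chemokine with its standard error (bars) for intermediate against early, full against intermediate and BEC against full; filled points have an edgeR adjusted p under 0.05. Cxcl5, Cx3cl1 and Ccl20 are right of 0 and filled in all 3 panels, Cxcl12 is left of 0 and filled in all 3, and Cxcl1 and Cxcl10 are open in all 3.

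Cxcl12, also called SDF-1, fell throughout. Early libraries had 236, 289.7 and 306 CPM, intermediate libraries 100.3, 113 and 133, full libraries 74.8, 62.9 and 72.2, and BEC libraries 9.44, 12.02 and 14.4. No group overlapped another. The changes were -1.26 at the first step (SE 0.15, edgeR adjusted p 7.76e-06), -0.72 at the second (SE 0.15, edgeR adjusted p 0.00144) and -2.55 for BEC against full (SE 0.16, edgeR adjusted p 1.78e-07). Scaled to total counts, the first step was -0.60 and still called. Stellate and endothelial cells are known sources of Cxcl12. The sum of 13 stellate cell and fibroblast markers was 116, 297 and 338 CPM in the early replicates, between 69.8 and 199.6 in intermediate, between 53.9 and 90.1 in full and between 67.2 and 113 in BEC. The sum of 11 endothelial markers was between 51.1 and 58.5 CPM in early, between 29.6 and 40.4 in intermediate, between 16.0 and 17.8 in full and between 7.76 and 18.5 in BEC. Full and BEC overlapped in both sums. The part of these cells in the level of Cxcl12 was not tested.

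Cxcl10, or IP-10, had 28.5, 14.6 and 20.3 CPM in early, 7.98, 11.2 and 18.2 in intermediate, 4.85, 8.92 and 9.53 in full, and 3.76, 4.75 and 5.03 in BEC. Neighbouring groups overlapped, but full and BEC both lay below early without overlap. No single step was called (-0.76, -0.69 and -0.78; edgeR adjusted p 0.0566, 0.107 and 0.128). A block on replicate number made the first a call (-0.83, edgeR adjusted p 0.0242), as did DESeq2 (-0.82, DESeq2 adjusted p 0.0268), median-of-ratios factors (-0.82, edgeR adjusted p 0.043) and leaving out early replicate 2, intermediate replicate 3 or full replicate 1 (-0.76 to -1.14). Without a filter on low counts all 3 were called (-0.73, -0.68 and -0.81; edgeR adjusted p 0.0038, 0.0123 and 0.00539). The second step was also called without intermediate replicate 1 (-0.92). Other omissions brought the changes nearer to 0, to -0.48 at the first step without early replicate 1 and -0.31 at the second without intermediate replicate 3 (edgeR adjusted p 0.244 and 0.489). BEC against full was also called without full replicate 1 (-1.03) and when only the libraries compared were fitted (-0.80, edgeR adjusted p 0.0496). Full against early was called (-1.45, SE 0.32, edgeR adjusted p 0.00112), and BEC against early too (-2.23, SE 0.34, edgeR adjusted p 3.87e-05). Scaled to total counts, full against early was not called (-0.58, edgeR adjusted p 0.108). Its neighbour Cxcl9, another ligand of Cxcr3, fell from 13.2 ± 2.22 CPM in early to 2.82 ± 1.25 in intermediate (SD, n = 3; -2.21, SE 0.39, edgeR adjusted p 0.000316) and was not called at the later comparisons. Cxcl11, annotated as a pseudogene in the reference strain, fell from 2.83 ± 1.80 to 0.493 ± 0.202 CPM (-2.48, SE 0.64, edgeR adjusted p 0.00493).

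The promoter window of Cxcl10 was the only 1 of the 6 to hold the interferon response motif, which 2.98% of all windows hold, and the AP-1 motif, which 6.75% hold. It also held the kappaB consensus at 2 places, 159 to 150 and 103 to 94 bases before the start. The 250 bases are shown with matches in capitals.
Cxcl10, chr5:92348890-92349139, minus strand: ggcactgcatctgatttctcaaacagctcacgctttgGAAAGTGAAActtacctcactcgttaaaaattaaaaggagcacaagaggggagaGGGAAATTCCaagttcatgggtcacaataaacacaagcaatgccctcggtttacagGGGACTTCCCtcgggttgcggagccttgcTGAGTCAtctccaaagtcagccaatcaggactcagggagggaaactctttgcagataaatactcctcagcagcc
The windows of Cxcl12 and Cx3cl1 held none of the motifs searched.

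Of 18 interferon response genes, Cxcl9 and Cxcl11 included, 2 rose and 7 fell at the first step (28.7% and 25.7% of all genes), 5 rose and 3 fell at the second (20.8% and 19.8%), and none were higher and 8 lower in BEC than in full (10.7% and 10.6%). The counts at the second step are close to the shares over all genes. Bst2, a membrane protein that tethers virions, fell at the first step (-1.42, SE 0.16, edgeR adjusted p 4.67e-06). Ifit2, which inhibits translation of viral RNA, rose (1.79, SE 0.13, edgeR adjusted p 9.60e-08). Among the genes called between BEC and full were Usp18, a brake on interferon signalling (-1.32, SE 0.14, edgeR adjusted p 1.86e-05), and Mx1 and Ifit2 (-1.09 and -1.08). The medians of the list were -0.09, 0.25 and -0.58, beside 0.06, 0.01 and 0.00 over all genes.

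To compare levels between genes, mean CPM was divided by the length of merged exons. That length joins the exons of all annotated isoforms, 8176 bases for Cxcl12 and 1875 for Cxcl1, and which isoforms were expressed was not tested. Before division, the early means were 277 CPM for Cxcl12 and 93.3 for Cxcl1, so their order depends on the length used. In early, Cxcl1 (49.8 ± 7.19 CPM per kilobase), Cxcl12 (33.9 ± 4.47) and Ccl2 (29.6 ± 10.5) led, and the last pair lay within 1 SD of each other. In intermediate, Ccl2 led with 218 ± 44.6 CPM per kilobase, followed by Cxcl1 (68.6 ± 16.4) and Cxcl16 (30.1 ± 2.91). In full, Ccl2 led again (203 ± 71.3), with Cxcl16 (57.4 ± 6.82) and Cxcl1 (55.4 ± 24.1) within their spread of each other, and Cxcl5 (33.5 ± 10.6) next. In BEC, Cxcl5 led with 238 ± 21.9 CPM per kilobase, ahead of Ccl2 (131 ± 41.5), Cxcl16 (64.3 ± 3.90) and Cxcl1 (57.8 ± 10.8), all SD with n = 3.

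**Figure D4:**
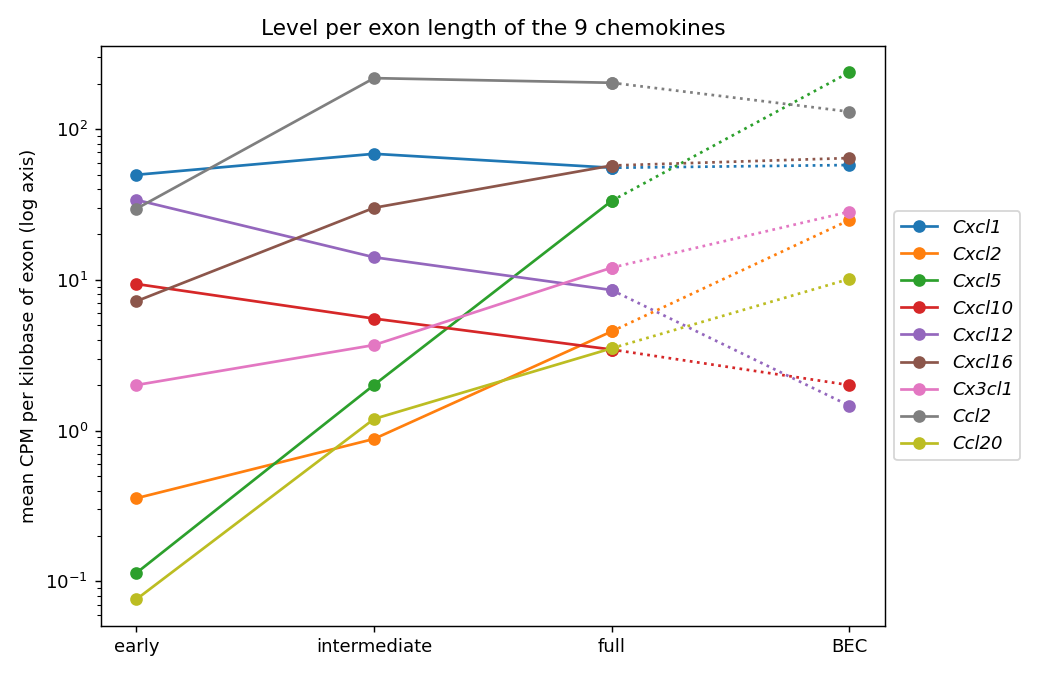
Mean CPM per kilobase of merged exon (log axis) of the 9 chemokines in each group, with solid lines along the hepatocyte-derived groups and dotted lines to BEC, a group of other origin. Ccl2 leads in intermediate (218) and full (203), Cxcl5 in BEC (238), and Cxcl12 drops to 1.46.

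Replicates of a group differed together for some chemokines. In intermediate, full and BEC, Cxcl1, Ccl2 and Cxcl10 were each lowest in replicate 1 and highest in replicate 3. Over the 9 libraries of these groups, deviations from the group mean of log2 CPM correlated with r = 0.938 between Cxcl1 and Ccl2, 0.89 between Cxcl1 and Cxcl10 and 0.809 between Ccl2 and Cxcl10. These pairs and libraries were picked after the pattern was seen. Over all 12 libraries the same 3 pairs had 0.905, 0.846 and 0.824, the highest of 36 pairs, whose lowest was -0.601 between Cxcl5 and Cxcl12. The summed level of 17 genes known to respond to tissue dissociation, such as Fos and Egr1, was also lowest in replicate 1 and highest in replicate 3 in all 4 groups, from 4694 to 9207 CPM in intermediate. Over the same 9 libraries, its deviations correlated with those of Ccl2 (r = 0.924), Cxcl10 (0.88), Cxcl1 (0.86) and, inversely, Cxcl5 (-0.81). The others were 0.689 for Cxcl12, 0.603 for Ccl20, 0.404 for Cxcl2, 0.275 for Cxcl16 and -0.325 for Cx3cl1. In early the order was not the same, with Cxcl1, Ccl2 and Cxcl10 highest in replicate 1, and over all 12 libraries the r was 0.746 for Cxcl12, 0.653 for Cxcl1, 0.553 for Cxcl10, 0.508 for Ccl2, 0.502 for Ccl20 and -0.727 for Cxcl5. Cxcl12 had the largest of the 9 in absolute value. The macrophage marker sum followed the same replicate order in intermediate (31.2, 41.1 and 43.7 CPM), full (67.4, 81.2 and 100.3) and BEC (134, 154 and 169.6). Without Csf1r it spanned 6.60 to 19.1 CPM in intermediate, 6.42 to 26.9 in full and 6.45 to 49.99 in BEC. The hepatocyte marker sum followed that order in intermediate (17664, 21906 and 23868) and full (4137, 4245 and 5609). In all 4 groups the stellate cell and fibroblast sum was highest in replicate 3. The biliary sum was highest in replicate 1, as Cxcl5 was, in intermediate (12372.5, 9504 and 10334 CPM), full (15344, 12141 and 12538) and BEC (18437, 15417 and 15253). The part of dissociation or of any of these cell types in these levels was not tested. Of the 17 genes, 4 rose and 1 fell at the first step (28.7% and 25.7% of all genes), 1 fell at the second (19.8%), and 1 was lower in BEC than in full (10.6%).

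**Figure D5:**
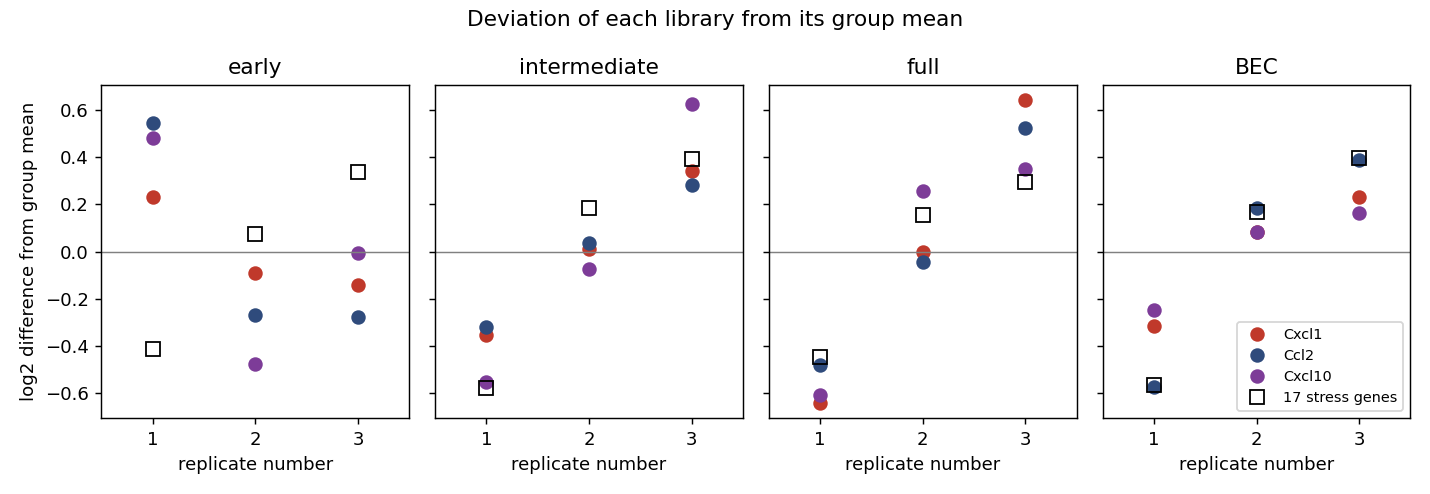
Log2 difference of each library from its group mean for Cxcl1, Ccl2, Cxcl10 (circles) and the summed 17 dissociation-responsive genes (squares), by group and replicate number. In intermediate, full and BEC all 4 measures are lowest in replicate 1 and highest in replicate 3, and in early the 3 chemokines are highest in replicate 1.

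Among 29 other chemokine genes, 14 passed the filter, of which 4 rose and 4 fell at the first step, where 28.7% and 25.7% of all genes did. At the second, 4 rose and 3 fell (20.8% and 19.8% of all genes), and 3 were higher and 2 lower in BEC than in full (10.7% and 10.6%). The counts at the first step are close to the shares over all genes. Cxcl17, a mucosal chemokine, had 0 counts in early and was at least 37.4-fold higher in BEC, at 9.39 ± 1.41 CPM (SD, n = 3). Ccl9 had 149 ± 6.52 CPM in early, 79.1 ± 14.4 in intermediate, 9.16 ± 2.21 in full and 4.47 ± 0.527 in BEC. It fell at each comparison, with its largest change at the second step (-3.11, SE 0.17, edgeR adjusted p 3.39e-08). Cxcl14, an attractant of macrophages and dendritic cells, fell from 30.3 ± 8.70 to 0.857 ± 0.107 CPM in BEC and was called at all 3 comparisons. The receptors of the 9 ligands were scarce. Of 22 chemokine receptor genes, 6 passed the filter, and the list summed to at most 11.4 CPM in any library. Cx3cr1, the receptor of Cx3cl1, had 4.27 CPM in early and fell to 1.28 at the first step (-1.73, SE 0.42, edgeR adjusted p 0.00306).

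Of 24 genes of the NF-kB pathway and its targets, 22 were tested. At the first step 15 rose and 3 fell, at the second 9 rose and 3 fell, and 5 were higher and none lower in BEC than in full. The shares over all genes were 28.7% rising and 25.7% falling, 20.8% and 19.8%, and 10.7% and 10.6%. The medians were 0.82, 0.37 and 0.09, beside 0.06, 0.01 and 0.00 over all genes. The summed level of the 24 genes was 2432, 1595 and 1569 CPM in the early replicates and between 1851 and 2249 in intermediate. Early replicate 1 thus lay above every intermediate library. Lcn2, part of this sum, had 905 ± 363 CPM in early and 259 ± 133 in intermediate (SD, n = 3). Tnf, a cytokine that activates the pathway, went from 0.0533 ± 0.046 CPM in early to 1.05 ± 0.684, 11.7 ± 3.42 and 39.7 ± 11.2 in intermediate, full and BEC, and was called at each comparison (4.06, 3.49 and 1.77; edgeR adjusted p 0.00401, 9.65e-06 and 0.000625). BEC was at least 158-fold above early, where no library had more than 1 count. Vcam1, an adhesion molecule for leukocytes, rose from 48.4 ± 5.21 to 154 ± 35.0, 443 ± 49.3 and 829 ± 42.7 CPM. Saa3 and Lcn2, acute phase genes, fell at the first step (-2.95 and -1.81), and Lcn2 was higher in BEC than in full (1.33, SE 0.34, edgeR adjusted p 0.0128).

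Receptors and adaptors through which chemokine genes are induced moved in both directions, with 6 of 21 rising and 10 falling at the first step (28.7% and 25.7% of all genes), 7 rising and 4 falling at the second (20.8% and 19.8%), and 4 higher and 2 lower in BEC than in full (10.7% and 10.6%). The 6 that rose at the first step and the 4 that fell at the second are close to these shares. Il17re, a receptor subunit for the epithelial cytokine Il17c, went from 0.141 ± 0.055 CPM in early and 0.134 ± 0.082 in intermediate to 6.26 ± 0.114 in full and 55.7 ± 3.01 in BEC (SD, n = 3). It was called at the second step (5.47, SE 0.25, edgeR adjusted p 1.35e-08) and in BEC against full (3.15, SE 0.13, edgeR adjusted p 9.29e-09). Tlr4, the receptor of bacterial lipopolysaccharide, had 0.275, 0.616, 3.795 and 18.5 CPM in the 4 groups and was called at the same comparisons (2.64 and 2.28; edgeR adjusted p 0.000244 and 0.000182). Osmr rose at the first step (2.10, SE 0.26, edgeR adjusted p 1.35e-05), and Il6ra and Il1rap fell (-1.94 and -1.90).

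Among 10922 other tested genes with at least 10 CPM in their highest group, those whose log2 CPM followed each chemokine most closely over the 12 libraries were listed by Pearson r, as a description of libraries that share the same groups. For Cxcl5 they were Arrdc1 (0.997), Slc7a1 (0.995) and Plekhm3 (0.994), and for Cxcl2 they were Csrp1 (0.991), Prom1 (0.983) and Nipal3 (0.982). Cx3cl1 was followed by Tor4a (0.995) and Ptgfrn (0.994), Ccl20 by Dync2i1 (0.992), Drc3 (0.992) and Mcf2l (0.992), and Cxcl16 by Cers5 (0.996), Arhgef2 (0.996) and Slc4a3 (0.996). Ccl2 was followed by Rap2b (0.982), Anxa5 (0.981) and Sptan1 (0.977). Among the falling genes, Cxcl12 was followed by Elovl2 (0.996), Zcchc24 (0.994) and Qprt (0.993), and Cxcl10 by Kif1b (0.962), Tbx3 (0.958) and Samd8 (0.954). The closest to Cxcl1 were Ago2 (0.88), Ap3d1 (0.827) and Osgin1 (0.805), which, like Cxcl1, had group means within a narrow range. Elovl2, a fatty acid elongase, had mean levels of 475, 184, 85.1 and 7.85 CPM from early to BEC. Prom1, a marker of biliary progenitor cells, had 11.7, 31.8, 110.3 and 401.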

How the data were processed

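RNA of 12 sorted liver cell libraries was analysed, grouped and numbered by the sample titles. The authors deposited raw counts per gene symbol. STAR 2.7.10b, featureCounts 2.0.1 and DESeq2, with the build GRCm39, are named per the submitters' processing notes, while annotation, strandedness and the treatment of multi-mapping reads are not given in the sources used here. A second deposited table, the same counts divided by size factors, was not used. No column lacked a sample (0) and no row a gene name (0).

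Counts were modelled with edgeR 4.0.16 (with limma 3.58.1, under R 4.3.3), and DESeq2 1.42.0 served as an alternative. Figures came from matplotlib 3.10.9 under Python 3.11.15. Genes kept by filterByExpr (16210, at least 99.86% of the counts of each library) were scaled by TMM factors, and all 12 libraries entered 1 quasi-likelihood fit with a term per group. Calls have a Benjamini-Hochberg adjusted p under 0.05 over every gene in the fit, which had a common biological coefficient of variation of 14.8%. Floors of 3 counts correspond to 0.128 to 0.273 CPM and, like counting intervals, cover counting error only, since PCR copies are not independent molecules. Log2 CPM used a prior count of 2. Merged exon lengths came from GENCODE M21 (GRCm38), matched by symbol for all 9 genes. Motifs were searched in the 250 bases before RefSeq starts.

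The 9 genes and all lists were chosen with earlier results of these data known. The text names the 9 genes, up to 3 called genes of a list in each direction by size, the marker and neighbouring genes that a result turns on, and the 3 closest genes by Pearson r, of which 1 is not reported here. Alternatives were DESeq2, median-of-ratios factors, scaling to total counts, no filter, a minimum mean of 50 counts, a block on replicate number, fits restricted to the libraries compared, and leaving out each library. For libraries with the same number, the deviations from their group means had r from 0.121 to 0.322 in the 3 comparisons of neighbouring groups, so the numbers pair the libraries there. In the other 3 at least 1 pair had r under 0.1. What the numbers mark is not stated. Replicates differed beyond counting error, with chi-square per degree of freedom of at least 5.23.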

Additional observations from a re-analysis of the deposited data

How the results depend on the processing

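Besides omissions of single libraries, log2 fold changes of the 9 genes kept direction and side of the threshold in 408 cases, became called in 26, lost the call in 4 and reversed in 3. All 3 reversals came with total counts only, in values not called (Ccl2 in full against intermediate, 0.10, and Cxcl5 and Cxcl10 for the difference of the 2 steps, -0.38 and -0.38). For that difference, 2 of the 9 genes and 2665 genes in all (16.4% of those tested) were called. With total counts only these were 4 and 6139 (37.9%), and the median over all genes moved from -0.08 to -0.54. Without a filter on low counts they were 5 of the 9 and 2932 (9.70% of 30230). In both settings the cause was not tested. Total counts also moved the percentage of higher calls, from 52.8% to 85.6% at the first step and from 51.2% to 72.6% at the second. With the replicate block, Cxcl2 (1.27) and Cxcl10 (-0.83) at the first step and Cx3cl1 for the difference (0.84) gained a call, and no other call of the 9 genes changed. The block gave 9274, 7300 and 4096 genes for the 3 comparisons of neighbouring groups.

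When 1 library was left out, the difference of the 2 steps was called for 1 to 3 of the 9 genes. Over all genes it was called for 1676 to 2863 (9.96% to 17.15% of those tested). The low values came without intermediate replicate 2 (1 gene, 1676 in all) and, for the 9 genes, also without full replicate 1. Values with a reversal ranged from -2.14 to 1.51 (Cxcl5) and -0.40 to 0.83 (Cxcl10) for the difference, -0.41 to 0.11 for Ccl2 in full against intermediate, -0.20 to 0.44 for Cxcl1 in BEC against full, and -0.22 to 0.42 for Cxcl1 in full against early, none called. The Ccl20 difference became a call with total counts only (-2.72, edgeR adjusted p 0.0243) and without a filter on low counts (-2.33, edgeR adjusted p 0.0296). It was also called without early replicate 3 (edgeR adjusted p 0.0106), but early then holds 0 counts, which do not bound the fitted value. Depth limits Cxcl5 and Ccl20 in early, where 8 and 4 counts stand for the group.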
